A study of Mus musculus with 6 samples.

Results

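The miR-34 and miR-449 family was measured in purified round spermatids, which are young haploid male germ cells, of Miwi knockout (KO) and wild-type (WT) mice. Its members were taken as every entry of the small RNA table named as a mature mouse miR-34a, miR-34b, miR-34c, miR-449a, miR-449b or miR-449c, from either arm of the hairpin (in full mmu-miR-34a-5p, mmu-miR-34a-3p, mmu-miR-34b-5p, mmu-miR-34b-3p, mmu-miR-34c-5p, mmu-miR-34c-3p, mmu-miR-449a-5p, mmu-miR-449a-3p, mmu-miR-449b, mmu-miR-449c-5p and mmu-miR-449c-3p, written without the prefix from here on). This gave 11 entries of 1900 miRNA entries and of 45932 small RNA entries in all. The rule used names and no measured value, but it was set with earlier results of these data known. The series holds 3 libraries of round spermatids from testes of global Miwi knockout males and 3 libraries from WT males, all C57BL/6 and 21 days old after birth. MIWI is the PIWI protein that binds the piRNAs of late meiotic and haploid male germ cells, and the line lacks it in every cell. Per the study's design text, round spermatids of KO males do not develop past an early step. The labels do not give the method of cell purification. Libraries are numbered 1 to 3 in both genotypes, and no label ties a number to an animal, so the p-values rest on a spread between libraries that could be technical alone.

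A miRNA is cut from a hairpin precursor that can release a mature RNA from its 5' arm (5p) and from its 3' arm (3p), and bases 2 to 8 of the mature RNA, the seed, pair with target mRNAs. The miR-34 and miR-449 genes share the seed of their 5p arms. miR-34a is a broadly expressed miRNA known as a target of p53, whereas miR-34b, miR-34c and miR-449 are known from ciliated epithelia and from meiotic and haploid male germ cells. Mice that lack miR-34b, miR-34c and the miR-449 cluster together are known to be infertile with poorly formed sperm and to have defects of motile cilia, while loss of either locus alone is tolerated.

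The mature sequences show which members can act through the same seed. RefSeq (build GRCm38.p6) gave a mature sequence for 9 of the 11 entries, and the seed is in capitals below.
miR-34a-5p: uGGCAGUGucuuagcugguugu
miR-34b-5p: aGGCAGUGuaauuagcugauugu
miR-449a-5p: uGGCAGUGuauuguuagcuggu
miR-449c-5p: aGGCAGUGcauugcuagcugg
These 4 carry the family seed, and no other of the 1738 mature mouse miRNAs in the RefSeq table does. miR-34a-5p and miR-449a-5p have the same length and differ at 7 positions. miR-34c-5p and miR-449b are known to carry the same seed.

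The 3p arms carry other seeds, and those of miR-34b and miR-34c share theirs.
miR-34b-3p: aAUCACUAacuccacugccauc
miR-34c-3p: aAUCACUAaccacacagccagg
miR-34a-3p: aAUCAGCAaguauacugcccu
miR-449a-3p: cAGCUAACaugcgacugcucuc
miR-449c-3p: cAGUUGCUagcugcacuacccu
miR-34b-3p and miR-34c-3p differ at 5 positions. How reads that match several entries were counted is not given in the sources used here, so the split of counts among paralogs is uncertain to that extent.

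The 6 genes lie at 3 places in the genome (GRCm38). Mir34a is at chr4:150068454-150068555 on the plus strand, where it overlaps 1 exon of Gm37795, a gene that GENCODE lists with the type TEC. Mir34c (chr9:51103034-51103110) and Mir34b (chr9:51103562-51103645) lie 451 bp apart on the minus strand, opposite to an intron of Btg4 on the plus strand. Mir449c (chr13:113035983-113036091), Mir449b (chr13:113037419-113037498) and Mir449a (chr13:113037534-113037624) lie within the gene Cdc20b on its strand and overlap 0 of its exons.

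Values are given as counts per 1000000 miRNA counts of the library (CPM), or as percent of its miRNA counts. The miRNA total was 146487 to 243655 counts in KO libraries and 179761 to 246030 in WT libraries, and was 18.1% to 19.6% of the small RNA table in KO libraries and 4.88% to 5.96% in WT libraries. Since piRNAs make up much of the rest and are the RNAs that MIWI binds, the whole table is a different scale from the miRNA total, and results on both are given. miRNAs known from other cells were detected in both genotypes. Of 15 marker miRNAs of smooth muscle, endothelial, blood and Sertoli cells and of spermatogonia, 14 were tested, of which 0 rose and 3 fell, where 7.34% of all tested miRNAs rose and 14.7% fell. Their summed level was 33812 to 37890 CPM in KO libraries and 40551 to 49270 CPM in WT libraries. Of the 15, miR-144-3p alone had 0 counts in a library.

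The family made up a large part of the miRNA reads in both genotypes, and its members did not all move in one direction. On the miRNA scale, 4 of the 11 entries rose in Miwi KO round spermatids and 3 fell (edgeR quasi-likelihood test, adjusted p under 0.05 over 26032 small RNAs). The risers were miR-449a-5p, miR-34b-3p, miR-34c-3p and miR-449a-3p, all from the Mir34b and Mir34c locus or from Mir449a. The entries that fell were miR-34a-5p and miR-34a-3p, the arms of Mir34a, and miR-449b. The most abundant members, miR-34b-5p and miR-34c-5p, did not pass. All 11 entries passed the filter on low counts. The rare miR-34a-3p passed it through its WT libraries alone, and the rare miR-449a-3p through its KO libraries alone. Each was thus tested because of the genotype where it was high, and the counts of risers and fallers include both. Over the 327 miRNA entries tested, 7.34% rose and 14.7% fell, and 22.0% changed in all, against 7 of 11 members (63.6%). Over all small RNAs tested, 5.53% rose and 79.3% fell. The median log2 change was 0.10 over the 11 members, -0.12 over the miRNAs tested and -2.29 over all small RNAs tested. In all 84.8% of the table passed on this scale, so the adjustment over the whole table is lenient. With miRNAs fitted and adjusted alone, miR-34c-3p and miR-449a-5p rose and miR-34a-5p and miR-449b fell, which is 4 of 11 members, where 13.1% of the miRNAs changed, 4.59% upwards and 8.56% downwards.

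**Figure D1:**
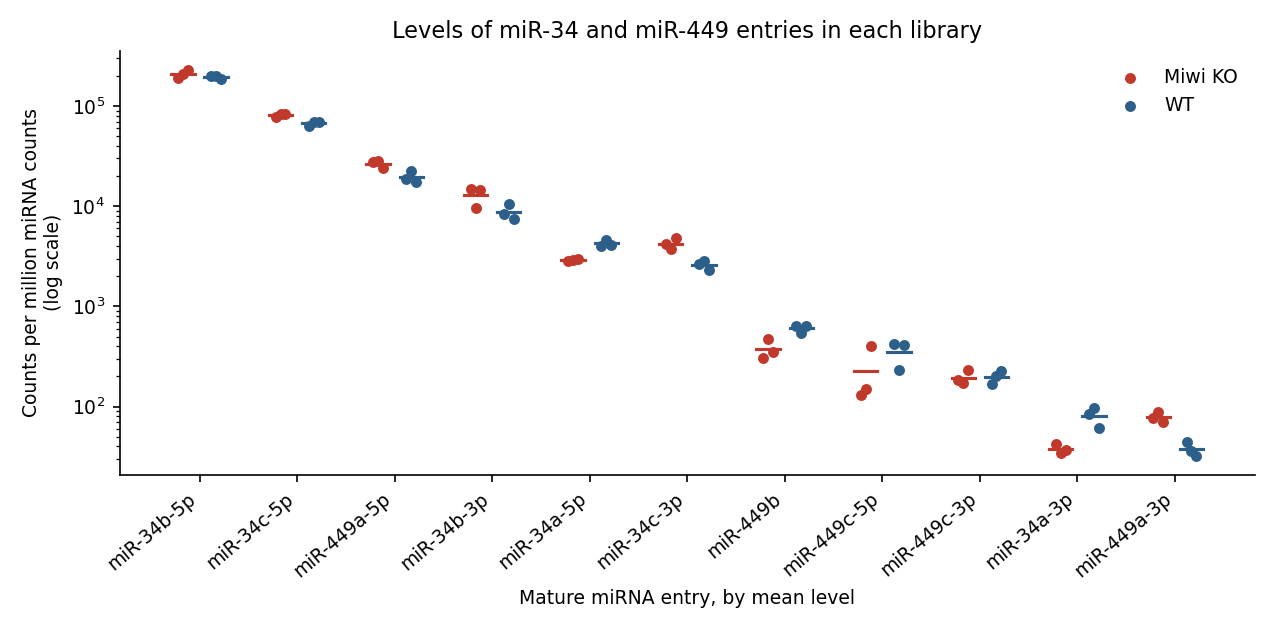
Level of each miR-34 and miR-449 entry in counts per 1000000 miRNA counts (CPM, log scale); points are the 3 Miwi KO and 3 WT libraries, and bars are the group means. miR-34b-5p averaged 209594 in KO and 196035 in WT, and miR-34a-3p and miR-449a-3p were under 100 in each library.

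Summed over the 11 entries, the family held 31.8%, 33.9% and 35.8% of the miRNA counts in KO libraries 1 to 3, and 29.9%, 31.0% and 29.0% in WT libraries 1 to 3. Each KO library was above each WT library. The SD over libraries was 2.01 points in KO and 1.03 points in WT, and the means differed by 3.89 points (two-sided exact permutation test, p = 0.1, the smallest that 3 against 3 libraries allow). With miR-468, of which miR-468-5p fell by 3.60 on the log2 scale, left out of the total, the difference was 2.29 points (exact permutation p = 0.2). Mir34b and Mir34c supplied 91.0% ± 1.04 of the family counts in KO and 91.6% ± 0.692 in WT. The 3 miR-449 genes supplied 8.16% ± 1.02 in KO and 6.93% ± 0.630 in WT, and the libraries overlapped in both these shares. Mir34a supplied 0.867% ± 0.0283 in KO and 1.44% ± 0.0800 in WT (n = 3 libraries each, SD), with no overlap (exact permutation p = 0.1). The shares of family counts need no scaling of the libraries.

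Order by level was nearly the same in the genotypes. miR-34b-5p was the most abundant of all miRNA entries in both. miR-34c-5p ranked 2 in KO and 3 in WT, miR-449a-5p 8 in KO and 11 in WT, and miR-34b-3p 15 in KO and 22 in WT. miR-34c-3p stood above miR-34a-5p in each KO library (ranks 41 and 56), and below it in each WT library (ranks 56 and 40). Likewise miR-449a-3p stood above miR-34a-3p in each KO library and below it in each WT library. Neighbouring members in the order had overlapping libraries only among miR-449b, miR-449c-5p and miR-449c-3p in KO. miRNAs are of similar length, but capture by ligation differs between sequences. The order of different miRNAs by counts may therefore not be that of their amounts, above all where levels are close. Shares of the family and seed-carrying counts have the same limit.

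At the Mir34b and Mir34c locus the abundant 5p arms did not pass and the rarer 3p arms rose. miR-34b-5p, the leading spermatid miRNA of the family, had 190298, 209944 and 228540 CPM in KO libraries and 200138, 199881 and 188087 in WT libraries. The genotypes overlapped, and the log2 change was 0.10 ± 0.15 (SE from edgeR, with adjusted p = 0.554). miR-34c-5p, its partner on the same primary transcript, was at 7.81%, 8.34% and 8.26% in KO libraries and at 6.36%, 6.85% and 6.90% in WT libraries. Each KO library was above each WT library, but the change of 0.28 ± 0.15 did not pass (SE from edgeR, with adjusted p = 0.0850). Among the tested miRNAs 34.6% did not overlap between genotypes, 10.7% being higher and 23.9% lower in KO. miR-34c-5p did pass with TMM factors of the miRNAs, at 0.40 (adjusted p = 0.0448), and with the members left out of the miRNA total, at 0.36 (adjusted p = 0.0306).

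The 3p arms of this locus, which share a seed of their own, both rose. miR-34c-3p had 4162, 3748 and 4814 CPM in KO libraries and 2648, 2821 and 2321 in WT libraries. The genotypes were far apart relative to their spread, and the log2 change was 0.71 ± 0.17 (SE from edgeR, with adjusted p = 0.000217), a 1.64-fold rise. miR-34b-3p had 14684, 9509 and 14397 CPM in KO libraries and 8356, 10575 and 7450 in WT libraries. KO library 2 lay within the WT range, and the log2 change was 0.55 ± 0.17 (SE from edgeR, with adjusted p = 0.00388). With miRNAs fitted alone miR-34b-3p did not pass (adjusted p = 0.0623).

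miR-449a-5p rose, as did the rare miR-449a-3p with few counts, and the other miR-449 members did not rise. miR-449a-5p, the main product of the Cdc20b locus, had 27379, 28480 and 24005 CPM in KO libraries and 18825, 22681 and 17319 in WT libraries. Each KO library was above each WT library, and the log2 change was 0.44 ± 0.16 (SE from edgeR, with adjusted p = 0.0106). Leaving out WT replicate 1 ended that call (adjusted p = 0.0552). miR-449a-3p was rare, with 18, 13 and 17 counts in KO libraries and 8, 7 and 8 in WT libraries, or 69.8 to 88.7 CPM in KO and 32.5 to 44.5 in WT. Only its KO libraries met the filter on low counts, a selection that favours a rise. Its change was the 7th highest of 327 tested miRNAs. The log2 change of 1.05 ± 0.41 passed (SE from edgeR, with adjusted p = 0.0164). It was lost without KO replicate 2 (adjusted p = 0.0554), WT replicate 2 (adjusted p = 0.0570) or WT replicate 3 (adjusted p = 0.0547), with DESeq2 (adjusted p = 0.102) and with miRNAs fitted alone (adjusted p = 0.0623).

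miR-449b, whose hairpin lies 35 bp from that of miR-449a, fell on the miRNA scale, where its neighbour rose. It had 307, 478 and 353 CPM in KO libraries and 640, 546 and 634 in WT libraries. All KO libraries were below all WT libraries, and the log2 change was -0.70 ± 0.21 (SE from edgeR, with adjusted p = 0.00270). miR-449c-5p, from the third hairpin of the cluster, had 132, 150 and 398 CPM in KO libraries and 417, 230 and 415 in WT libraries. KO library 3 stood apart from the other KO libraries and overlapped WT, and the change of -0.61 ± 0.30 did not pass (SE from edgeR, with adjusted p = 0.0545). Without KO replicate 3 the change of miR-449c-5p was -1.34 (adjusted p = 0.000240), and without WT replicate 2 it was -0.84 (adjusted p = 0.00463). Leaving out KO replicate 1 gave -0.31 (adjusted p = 0.351), KO replicate 2 gave -0.41 (adjusted p = 0.222), WT replicate 1 gave -0.48 (adjusted p = 0.15) and WT replicate 3 gave -0.45 (adjusted p = 0.116). The size of this change therefore differs by the library left out. It passed with miR-468 left out of the total (adjusted p = 0.0318), with no filter on low counts (adjusted p = 0.0255) and without both replicate 3 libraries (adjusted p = 0.000164). miR-449c-3p had 171 to 230 CPM in KO and 167 to 224 in WT, with a log2 change of -0.02 ± 0.27 (SE from edgeR, with adjusted p = 0.942).

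miR-34a, the broadly expressed member, fell in both arms on the miRNA scale, the 3p arm with few counts. Both arms rose on the scale of the whole table. miR-34a-5p had 2807, 2894 and 2971 CPM in KO libraries and 4000, 4637 and 4109 in WT libraries. The KO libraries agreed within a narrow range well below WT, and the log2 change was -0.56 ± 0.17 (SE from edgeR, with adjusted p = 0.00232). miR-34a-3p had 10, 5 and 9 counts in KO libraries and 15, 19 and 15 in WT libraries, or 34.1 to 42.6 CPM in KO and 61.0 to 96.9 in WT. Only its WT libraries met the filter on low counts, a selection that favours a fall, so it is no separate support for miR-34a-5p. Its log2 change of -1.04 ± 0.41 passed (SE from edgeR, with adjusted p = 0.0171). That call was lost without KO replicate 3 (adjusted p = 0.0578), without WT replicate 2 (adjusted p = 0.0928), with DESeq2 (adjusted p = 0.0994) and with miRNAs fitted alone (adjusted p = 0.0733).

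Of the 14 tested markers of other cells, the 3 that fell are given here beside miR-34a, which fell too, and 14.7% of all tested miRNAs did so. The smooth muscle and peritubular miRNAs, miR-143-3p and miR-145a-5p, both fell and summed to 14438 to 19138 CPM in KO libraries and 20217 to 29480 in WT libraries. Of the erythroid markers miR-451a fell, and the pair summed to 36.9 to 47.8 CPM in KO and 77.9 to 122 in WT. The endothelial, leukocyte, Sertoli and spermatogonial markers had 0 of 11 members that passed, and their sums overlapped between genotypes. The part of these cells in the fall of miR-34a was not tested. In a bulk preparation fewer cells of a type and less RNA per cell cannot be told apart.

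**Figure D2:**
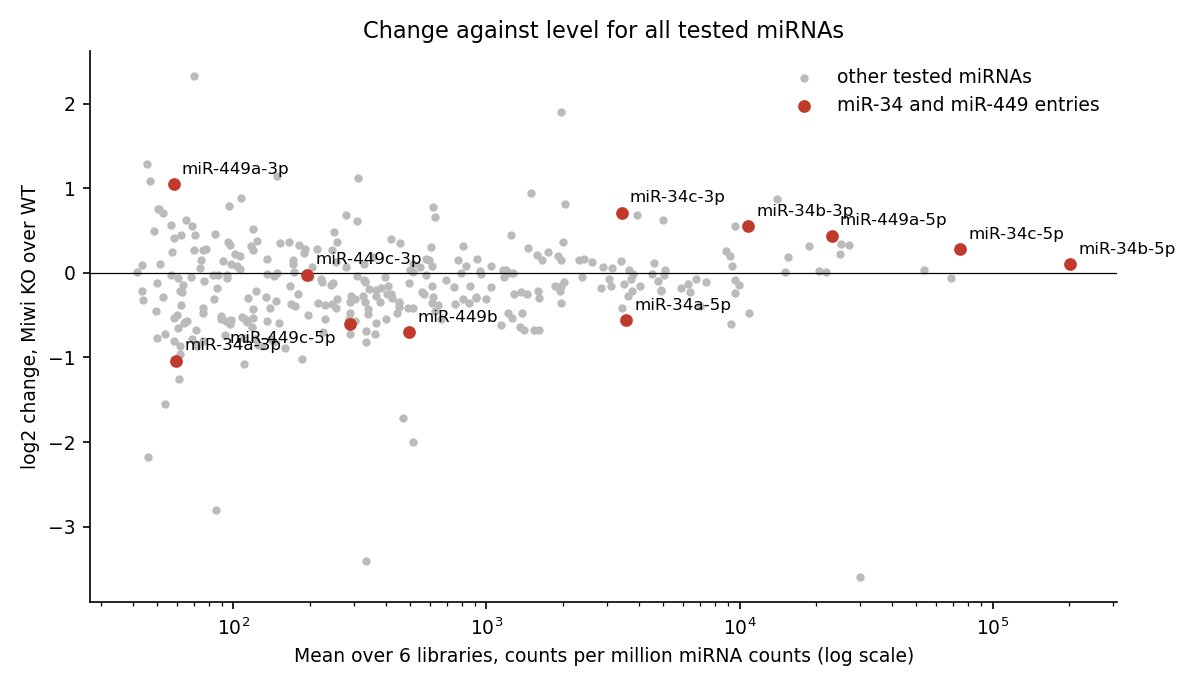
log2 change in Miwi KO over WT on the miRNA scale against the mean level over 6 libraries (log scale), for 327 tested miRNAs; miR-34 and miR-449 entries are in red. The 4 most abundant members are above 0, the arms of miR-34a are below, and miR-449b and miR-449c-5p are below while both arms of miR-449a are above.

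The direction of several members depends on the scale. With TMM factors of the whole small RNA table, 11 of 11 members rose. So did 338 of 348 tested miRNAs, and 8613 of 24682 small RNAs. The lowest changes of the family were then 1.36 for miR-34a-5p, 1.35 for miR-449c-5p, 1.23 for miR-449b and 0.88 for miR-34a-3p. miR-449a-3p at 2.97 and miR-34c-3p at 2.62 were again the highest. That scale moved the median of the tested miRNAs to 1.81 from -0.12, and the members spread around it in the same order. As a share of the small RNA table the family was 5.77%, 6.64% and 6.54% in KO libraries and 1.72%, 1.85% and 1.41% in WT libraries (exact permutation p = 0.1).

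**Figure D3:**
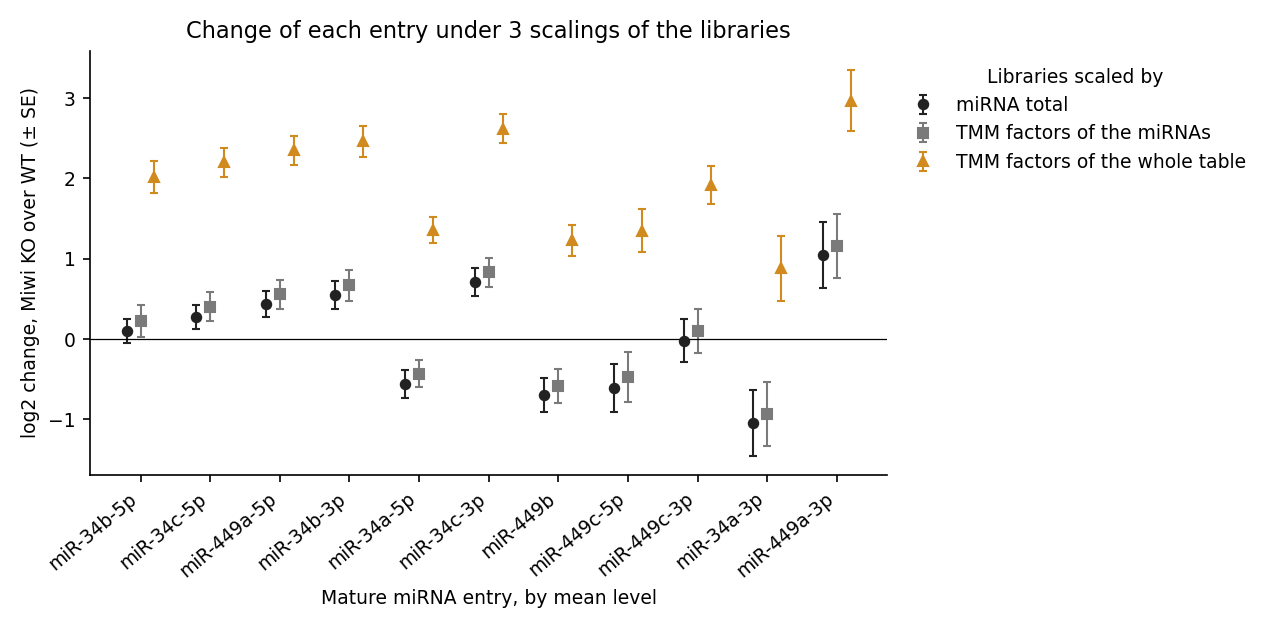
log2 change ± SE of each entry in Miwi KO over WT, with libraries scaled by the miRNA total, by TMM factors of the miRNAs or by TMM factors of the whole small RNA table. The first 2 scalings differ little, the whole-table scaling lifts all entries by about the same amount, and miR-34a-5p, miR-34a-3p, miR-449b and miR-449c-5p are above 0 on that scale only.

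Within a hairpin, the 5p arm was the abundant product of miR-34a, miR-34b, miR-34c and miR-449a. For miR-449c the geometric mean of the 5p to 3p ratio was 1.03 in KO and 1.73 in WT. These ratios need no scaling. The 5p to 3p ratio of miR-34c was 18.8, 22.2 and 17.1 in KO libraries and 24.0, 24.3 and 29.7 in WT libraries, lower in each KO library. The log2 difference was -0.43 ± 0.19 (SE, limma unadjusted p = 0.0313), which did not pass over the 68 hairpins with enough counts in both arms (adjusted p = 0.164). Of all 68 hairpins, 22.1% had an unadjusted p under 0.05, and 10.3% had one with a lower ratio in KO. For miR-449a the ratio was 357, 321 and 344 in KO libraries and 423, 635 and 533 in WT libraries, also without overlap, with a log2 difference of -0.57 ± 0.36 (SE, limma adjusted p = 0.370). Among all hairpins tested, 14.7% had a lower and 11.8% a higher ratio in KO without overlap. For miR-34b the ratio was 13, 22.1 and 15.9 in KO libraries and 24.0, 18.9 and 25.2 in WT libraries, and the libraries overlapped. The log2 difference was -0.44 ± 0.23 (SE, limma adjusted p = 0.258). It passed without KO replicate 2, at -0.65 (adjusted p = 0.0340).

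miR-449c, with 0.721, 0.880 and 1.73 in KO libraries and 2.50, 1.12 and 1.85 in WT libraries, had a log2 difference of -0.74 ± 0.31 (SE, limma unadjusted p = 0.0198, adjusted p = 0.135). It was -1.11 without KO replicate 3 (adjusted p = 0.0657) and -0.48 without KO replicate 1 (adjusted p = 0.530) or WT replicate 1 (adjusted p = 0.444). For miR-34a the mean ratio was higher in KO, with 65.9, 84.8 and 80.4 in KO libraries and 47.9, 47.8 and 67.4 in WT libraries, a log2 difference of 0.46 ± 0.36 (SE, limma adjusted p = 0.538). The difference was negative in 4 of 5 family hairpins, and in 52.9% of the 68 hairpins tested. Of those 68, 11.8% passed after adjustment, and 0 of the 5 family hairpins did.

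**Figure D4:**
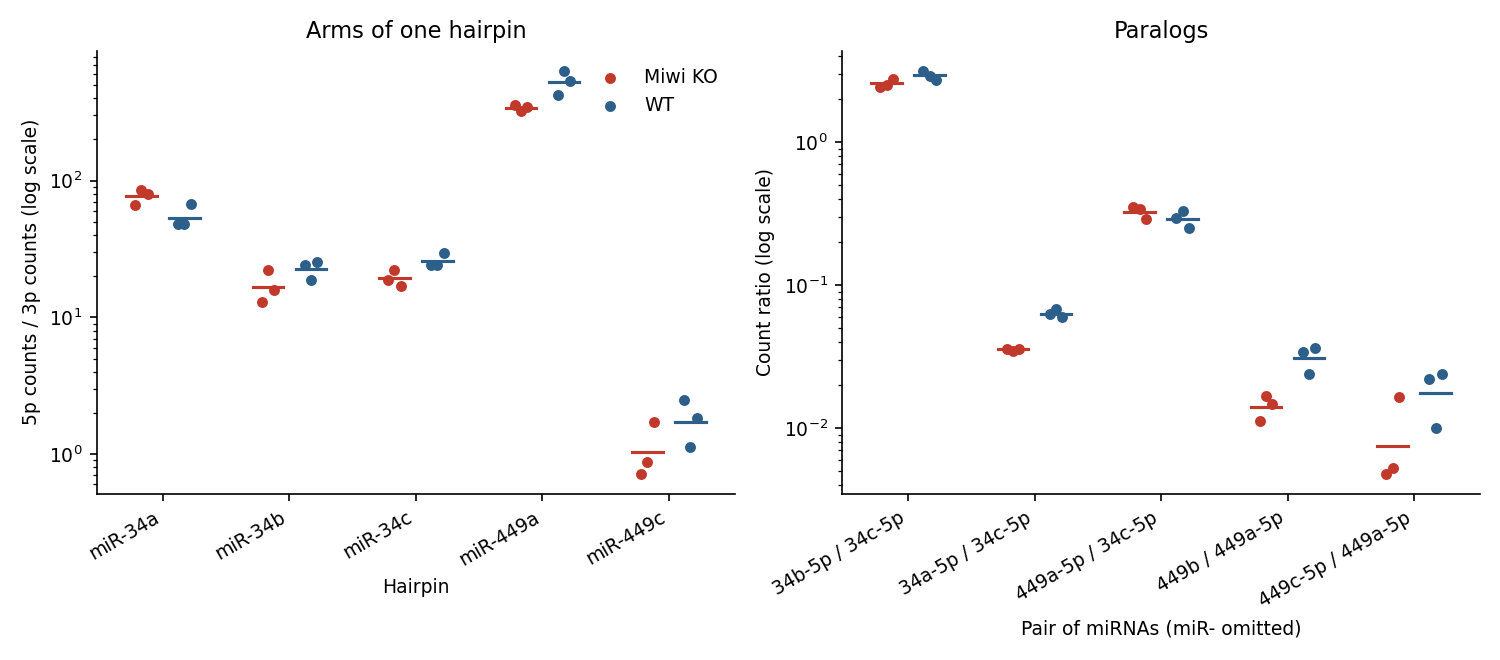
Count ratios per library on log scales: left, 5p over 3p counts of each hairpin; right, pairs of paralogs. Points are the 3 Miwi KO and 3 WT libraries and bars their geometric means. The ratio of miR-34a-5p to miR-34c-5p and that of miR-449b to miR-449a-5p are lower in all KO libraries than in all WT libraries.

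Ratios between paralogs need no total. Per miR-34c-5p count there were 0.0360, 0.0347 and 0.0360 miR-34a-5p counts in KO libraries and 0.0629, 0.0677 and 0.0596 in WT libraries. The KO values were 1.78-fold lower and lay far outside the WT range (exact permutation p = 0.1, the smallest possible, adjusted p = 0.25 over 5 pairs). Per miR-449a-5p count there were 0.0112, 0.0168 and 0.0147 miR-449b counts in KO libraries and 0.0340, 0.0241 and 0.0366 in WT libraries. This was 2.21-fold lower in KO without overlap (exact permutation p = 0.1, adjusted p = 0.25). The hairpins of this pair lie 35 bp apart in Cdc20b.

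The ratios among the most abundant 5p members overlapped between genotypes. miR-34b-5p was at 2.44, 2.52 and 2.77 counts per miR-34c-5p count in KO libraries and at 3.15, 2.92 and 2.73 in WT libraries (exact permutation p = 0.2). miR-449a-5p was at 0.351, 0.342 and 0.291 per miR-34c-5p count in KO libraries and at 0.296, 0.331 and 0.251 in WT libraries (exact permutation p = 0.3). For miR-449c-5p over miR-449a-5p the ratio was 2.33-fold lower in KO on average, but KO library 3 lay within the WT range (exact permutation p = 0.2). With 3 libraries a genotype, none of these 5 pairs could reach 0.05.

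The seed-carrying pool was dominated by miR-34b-5p and miR-34c-5p in both genotypes. miR-34b-5p made up 65.2% ± 1.99 of the pool in KO and 68.1% ± 1.30 in WT. miR-34c-5p made up 25.4% ± 0.899 in KO and 23.3% ± 1.29 in WT, and miR-449a-5p 8.33% ± 1.10 in KO and 6.80% ± 0.759 in WT (n = 3 libraries each, SD). These shares overlapped between genotypes. miR-34a-5p, at 0.902% ± 0.0327 in KO and 1.47% ± 0.0867 in WT, and miR-449b, at 0.118% ± 0.0251 in KO and 0.211% ± 0.0235 in WT (n = 3 libraries each, SD), did not overlap (exact permutation p = 0.1 for each). Reads with the family seed as a whole were 32.1% ± 2.03 of miRNA counts in KO and 28.8% ± 0.849 in WT (n = 3 libraries each, SD), higher in all KO libraries (exact permutation p = 0.1).

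A pair of other miRNA families is set beside the members on the miRNA scale. Of the let-7 and miR-98 family, known from differentiated cells, 12 of 22 entries were tested, 3 rose and 0 fell, with a median log2 change of 0.20. With miRNAs fitted alone 2 of these 12 rose, and 14 of 14 tested did under whole-table TMM factors. Of the miR-17-92 cluster and its relatives, known from dividing cells, 16 of 28 entries were tested, 1 rose and 0 fell, with a median of 0.01. In edgeR with miRNAs fitted alone 0 of these 16 rose, and 16 of 16 did under whole-table TMM factors. Over all tested miRNAs 7.34% rose and 14.7% fell, with a median of -0.12, and 4.59% rose with miRNAs fitted alone. Under whole-table TMM factors 338 of 348 tested miRNAs rose. Whether the families differ was not tested.

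On the log2(CPM + 1) scale, the pattern of the summed seed-carrying members over the 6 libraries was most like that of miR-350-3p (Pearson r = 0.878), miR-669a-5p (r = 0.857), miR-467h (r = 0.835), miR-1a-3p (r = 0.829) and miR-92a-3p (r = 0.821), among 181 other miRNAs with a mean of at least 50 counts. All share the same libraries and the same miRNA total, of which the members themselves are a large part. Of these 5, miR-467h and miR-1a-3p rose on the miRNA scale, at 0.61 and 0.66 (edgeR adjusted p = 0.0210 and 0.00239). Among all tested miRNAs 7.34% rose. The 5 were picked for likeness to a sum that was higher in all KO libraries, which favours miRNAs higher in KO.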

How the data were processed

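Small RNA came from a mirVana kit, and an Ion Total RNA-Seq kit gave the libraries, per the labels' protocols. The authors deposited raw counts (whole reads for each small RNA), made with featureCounts v1.5.0-p2 per the file headers. The submitters' processing notes also name cutadapt, DESeq2 and mm9. The aligner is not given in the sources used here. Of the 9 members with a RefSeq sequence, 9 had an indexed length 20 nt above it.

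The small RNA table, of 747443 to 1335013 counts in KO and 3114845 to 5037232 in WT libraries, was fitted with the quasi-likelihood test of edgeR 4.0.16 under R 4.3.3 (minimum count 10, minimum total 15), with the miRNA total as library size and Benjamini-Hochberg adjustment over all RNAs tested. SE was the log2 change over the square root of F. Arm ratios were fitted with limma 3.58.1 over hairpins with at least 60 counts over the 6 libraries for each arm, with 0.5 added. Paralog ratios and shares were compared with exact permutation tests in Python 3.11.15. All tests were two-sided, with a threshold of 0.05. The edgeR and limma steps were tested on simulated data. Few entries changed in that simulation, while most of the table changed here, so it says little about accuracy on these data. Alternatives were other scalings, filters and pseudocounts, DESeq2 1.42.0, the replicate block and leaving out libraries. The fit on miRNAs alone was chosen after seeing the data. All members are named. The other miRNAs named are those most like the summed members, the marker list and 2 comparison families. Members and lists were chosen with earlier results of these data known.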

Additional observations from a re-analysis of the deposited data

How the results depend on the processing

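From 4 members up and 3 down, counts stayed at 3 to 5 up and 2 to 4 down under all alternatives but 2. Under whole-table TMM factors the counts were 11 up and 0 down, where 338 of 348 tested miRNAs rose. In the second, miRNAs fitted alone, chosen after seeing the data, 2 rose and 2 fell. With a minimum count of 50, 3 rose and 2 fell, and miR-34a-3p, miR-449a-3p and miR-449c-3p were not tested. Leaving out each library in turn gave 3 to 4 up and 3 down each time. Those 3 were not always the same entries. Without KO replicate 3 or WT replicate 2, miR-34a-3p was lost and miR-449c-5p passed. The members that reversed with whole-table factors were miR-34a-3p (0.88), miR-34a-5p (1.36), miR-449b (1.23), miR-449c-5p (1.35) and miR-449c-3p (1.92). That scaling moved the median of the tested miRNAs to 1.81 from -0.12. Which of the scales follows the amount per cell was not tested. miR-449c-3p, near 0, also reversed with TMM factors of the miRNAs (0.10), DESeq2 size factors of the miRNAs (0.11) and the members left out of the total (0.06). With single libraries left out its change ran from -0.17 to 0.08, and it reversed in 3 of those 6 fits. The arm ratio difference of miR-34b ran from -0.65 to -0.27 with single libraries left out. Arm ratios of miR-34a and miR-449a gave no value at 120 counts, without both replicate 3 libraries and in some fits with a library left out, since the rarer arm had too few counts. With the replicate number as a block 5 members rose and 4 fell, with miR-34c-5p (adjusted p = 0.00350) and miR-449c-5p (adjusted p = 0.00570) added. Same-numbered libraries correlated at -0.144, 0.221 and 0.118 in their deviations, and libraries of unlike number at -0.247 to 0.0995. With 3 libraries a genotype, these values cannot decide whether the numbers pair the samples. The entries with under 20 counts a library, miR-34a-3p and miR-449a-3p, are limited by depth. Each met the filter on low counts only through the genotype where it was high.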
